A study of Mus musculus with 4 samples.

Results

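The insulin-like growth factor (IGF) genes examined here are the 7 genes of the IGF binding protein series (Igfbp1 to Igfbp7), the ligand genes Igf1 and Igf2, and the receptor gene Igf1r. A DHX9 peak was assigned to a gene when its midpoint lay in the RefSeq span of that gene on the mouse build mm10. These 10 genes held 150 of the 43106 peaks in the list (0.348%), and 6 of the 10 held any. The set was chosen by measured values: Igfbp2 was picked because its peak density was high, and its paralogs and ligands were added for comparison. Peak counts and densities of Igfbp2 are therefore given as a description, with no test.

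DHX9 is an RNA helicase that opens double-stranded RNA. Its binding was mapped by FLASH, in which ultraviolet light links protein to RNA, the protein is pulled down, and the attached RNA is sequenced with its strand. The cells were neural progenitors derived from WT26, a single male embryonic stem cell line of C57BL/6x129sV background, kept in medium with the growth factors EGF and FGF2. All 4 libraries came from these cells: 2 replicates (A and B) with a rabbit antibody to DHX9 and 2 with rabbit IgG as the control. The deposited result analysed here was 1 peak list, with a position and a strand for each peak and no height, count or p-value. Which libraries entered the peak calling, and whether IgG served there as the control, is not given in the sources used here, so the IgG level at each peak is unknown. No value per library could be given, the sequencing depth is unknown, and no replicate error exists for any number below. A gene at 0 is a gene without a called peak, which is not a measure of its expression.

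The IGF ligands act through Igf1r, a receptor tyrosine kinase that signals to PI3 kinase and AKT and promotes growth and survival. The binding proteins are secreted. Apart from Igfbp7, they hold the ligands with high affinity, and thereby limit or prolong their action. Igfbp2 is well known as a binding protein of the embryonic brain and of neural stem cells. Igfbp2 and Igfbp5 form a tail-to-tail pair on chromosome 1, and Igfbp1 and Igfbp3 a tail-to-tail pair on chromosome 11, a layout inherited from early gene duplications.

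A list of bound RNA does not measure expression, so the labelled cell type could be checked only loosely. Of 10 neural progenitor markers, 4 carried a peak: Slc1a3 (122 peaks), Ptprz1 (64), Fabp7 (4) and Vim (1), while Sox1, Sox2, Nes, Pax6, Hes1 and Hes5 carried 0. None of 8 pluripotent cell markers carried a peak. Over all protein-coding genes the share with a peak was 18.9%, so counts of 0 or 1 of 8 are near that background. That share is not matched for span, and it was 5.47% in genes of like span to Igfbp1 (4.76 kb). Of 8 markers each, a peak lay in 1 for mature neurons (Map2, 46), in 2 for astrocytes and oligodendrocytes (Olig1, 4; Olig2, 2), and in 3 for mesoderm, endoderm and fibroblasts (Col3a1, 28; Col1a1, 7; Col1a2, 2). The share with a peak was 40% for neural progenitor markers and 37.5% for mesoderm, endoderm and fibroblast markers. These shares do not tell the labelled cell type from that other group. Whether other cell types contributed to the peaks below was not tested.

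Among the binding proteins, 4 of 7 genes carried peaks, 129 in all, and Igfbp2 alone held 79 of them. Igfbp4 held 18, Igfbp5 held 17 and Igfbp3 held 15. Igfbp1, Igfbp6 and Igfbp7 held 0. Of the ligand genes, Igf2 held 12 peaks and Igf1 held 0, and the receptor gene Igf1r held 9. All 6 bound genes had at least 9 peaks, a cutoff taken from the lowest of them, Igf1r. Among all 21900 protein-coding genes, 18.9% had at least 1 peak and 5.34% had at least 9. No gene of the set had 1 to 8 peaks. These counts are not adjusted for span, and the 9 peaks of Igf1r lay over 281.4 kb (0.03 per kb).

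**Figure D1:**
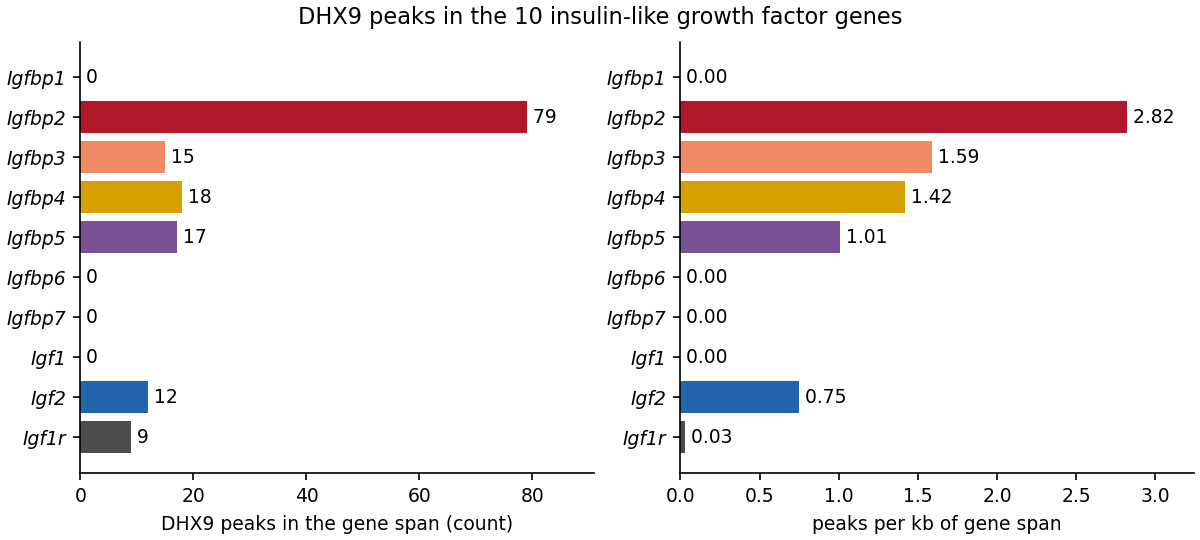
Number of DHX9 peaks (left) and peaks per kb of gene span (right) in each of the 10 genes, from the single peak list, so there are no error bars. Igfbp2 has 79 peaks and 2.82 per kb, the next gene on each scale has 18 (Igfbp4) and 1.59 per kb (Igfbp3), and 4 genes are at 0.

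All 150 peaks lay on the strand of their gene, as the RefSeq promoter table gives it. This was not particular to the set. In the pathway and marker genes with a peak and a listed strand, all peaks also lay on the gene's own strand, as in Slc1a3 (122 of 122) and Gab1 (77 of 77). The exception was Igf2r (1 of 69). Of the 150, 79 in Igfbp2, 18 in Igfbp4 and 9 in Igf1r were on the plus strand, and 15 in Igfbp3, 17 in Igfbp5 and 12 in Igf2 on the minus strand. None of the 150 lay in a second annotated gene. The shares of the whole peak list on the gene's own strand and in a single gene were not computed. Other annotated genes overlap Igf2 (Igf2os and Mir483), Igf1r (Gm51487 and Gm51488), Igf1 (Igf1os) and Igfbp7 (Gm34648 and Polr2b), and none of these 7 held a peak.

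Igfbp2 (gene 16008, plus strand, chr1:72824480-72852474) spans 28.0 kb and carried 2.82 peaks per kb. This was the highest density of 981 protein-coding genes with at least 10 peaks in no other gene, where the median was 0.36 per kb. Spry4, an inhibitor of growth factor receptor signalling, followed with 42 peaks at 2.78 per kb. The next genes were Arl8a, a lysosomal GTPase gene (23 peaks, 2.44 per kb), the actin bundling gene Fscn1 (28, 2.18 per kb), the kinase gene Map4k4 (267, 2.13 per kb) and Cdk2ap1 (19, 2.07 per kb). The first place rested on a small margin. Igfbp2 ranked 2 when peaks less than 50 bases apart were merged, 2 when any overlap with a gene counted, and 5 when shorter peaks were left out (below the median length).

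Genes of like size show how far the count in Igfbp2 lay from the usual. Of 2448 protein-coding genes with a span within 20% of that of Igfbp2, 603 (24.6%) had any peak, and the median of those was 4. In this group 1845 genes had 0 peaks, 300 had 1 to 3, 147 had 4 to 9, 151 had 10 to 49 and 5 had 50 or more. Those 5 were Igfbp2 (79), the splicing factor gene Rbm39 (58), the cyclin gene Ccnd2 (55), the 14-3-3 gene Ywhae (51) and Abhd17b (50). By plain peak number, regardless of size, Igfbp2 ranked 60 among all protein-coding genes.

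**Figure D2:**
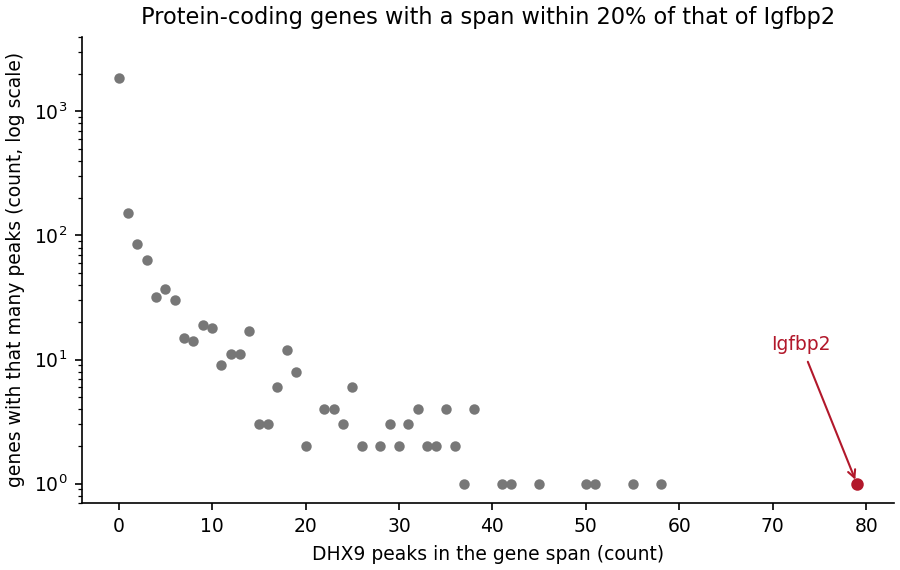
Number of genes (vertical, log scale) against DHX9 peaks per gene (horizontal) for the 2448 protein-coding genes whose span is within 20% of that of Igfbp2. Most genes are at 0 (1845), the highest other gene has 58, and Igfbp2 stands apart at 79.

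The Igfbp2 peaks filled the gene from end to end. The first peak began 8 bases after the annotated start of transcription, and the last peak ended on the last annotated base of the gene. In 10 bins of equal length along the RNA, the gene held 10, 7, 8, 8, 9, 8, 4, 6, 10 and 9 peaks. The fullest bin held 12.7% of the peaks. In the 795 genes with at least 10 peaks on their own strand and in no other gene, the fullest bin held 38% at the median, and only 5 genes had a lower value than Igfbp2. This share is larger in genes with few peaks by construction. Upstream of the gene's midpoint lay 53.2% of the peaks, against a median of 69.6% over the 795 genes (25th to 75th percentile, 45.5 to 87.9%).

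Neighbouring peaks in Igfbp2 were close together. The median distance between midpoints was 305.5 bases over 78 distances, with a range of 122.5 to 1074.5. This was the 53rd shortest median of the 795 genes, whose middle value was 492.0 bases. Only 1 pair of neighbours overlapped, and 13 pairs were separated by 0 to 25 bases. The longest stretch without a peak was 902 bases, from base 16701 to base 17602 after the start. Together the peaks covered 13981 bases, or 49.9% of the span, the largest covered share of the 795 genes (median 6.21%, 25th to 75th percentile 3.02 to 11.6%). Spacing and covered share largely follow from the peak density for which Igfbp2 was picked, so they are description and not a separate result.

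Single Igfbp2 peaks were of ordinary length. They ran from 57 to 560 bases with a median of 155.0, where the whole list had a median of 153. The high density of Igfbp2 was one of many peaks of usual size. After merging of peaks less than 50 bases apart, 57 separate stretches remained, covering 51.5% of the span.

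The third Igfbp2 peak (chr1:72825201-72825433) spans a second listed start of transcription, which lies 907 bases after the first. It is shown because it is the Igfbp2 peak whose sequence the RefSeq promoter table (GRCm38.p6, the assembly of mm10) covers most fully. Only its part before the second start was read here, although the promoter window also runs 50 bases from that start on. The 186 bases of the peak that lie before that second start (79.8% of the peak, chr1:72825201-72825386, plus strand) read as follows, 5′ to 3′, with runs of at least 3 G in capitals.
Igfbp2, 186 bases of the peak, before the second start: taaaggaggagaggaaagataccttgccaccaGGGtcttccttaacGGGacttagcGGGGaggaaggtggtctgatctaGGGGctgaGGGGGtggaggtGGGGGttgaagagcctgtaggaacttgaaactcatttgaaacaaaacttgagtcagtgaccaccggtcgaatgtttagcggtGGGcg

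This stretch held 7 runs of at least 3 G, and G made up 37.1% of its bases. At the same offset before 32851 listed starts, the median G content was 26.3%, and 87.6% of windows had less G than this stretch. Its G plus C content of 53.2% was at the median of those windows (53.2%). The G-quadruplex pattern, taken as 4 runs of at least 3 G with 1 to 7 bases between them, was absent on both strands. It was present in 7.79% of the windows on the strand that reads as the RNA and in 14.3% on either strand. RNA that starts at the first listed start would contain this stretch, and whether it is exonic or intronic was not determined.

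No peak lay in the 10 kb upstream of Igfbp2, and the nearest upstream peak outside the gene was 108.3 kb away. The 5590 bases between the ends of Igfbp2 and Igfbp5 (chr1:72852475-72858064) held 0 peaks. In the 10 kb downstream of Igfbp2 there were 11 peaks, all in Igfbp5 and on its strand. The last plus-strand peak ended at the annotated end of Igfbp2, and the nearest minus-strand peak of its neighbour began 5.93 kb further on. The share of all genes with flanks free of peaks was not computed. Empty flanks of Igfbp2 and of the other members are therefore description only.

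Igfbp5 (gene 16011, minus strand, chr1:72858065-72874865) encodes a binding protein that also attaches to extracellular matrix. It spans 16.8 kb and carried 17 peaks, or 1.01 per kb. Its neighbour Igfbp2 had 2.79 times as many per kb. The peaks were gathered toward the 3′ end: in 10 equal bins along the RNA their numbers were 2, 1, 1, 0, 0, 0, 2, 3, 6 and 2. A stretch of 5706 bases in the middle of the gene held none. The last 5 kb held 11 of the 17 peaks. Only 4 (23.5%) lay upstream of the midpoint, against the median of 69.6% over the 795 genes. The peaks had a median length of 194.0 bases (100 to 413) and covered 22.4% of the span.

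Igfbp3 (gene 16009, minus strand, chr11:7206086-7215498) encodes the main carrier of IGFs in blood. It carried 15 peaks over 9.41 kb, or 1.59 per kb, which ranked 26 of the 981 genes. Among 1967 genes of like span, 12.3% had any peak and Igfbp3 ranked 7 by number. The only listed start lies inside the annotated span, 7838 bases before its end, and no peak lay upstream of it. As in Igfbp2, peaks reached from one end to the other: the first began 70 bases after that start, the last ended on the last annotated base, and the longest stretch without a peak was 941 bases. The peaks were longer than usual, with a median of 223.0 bases (87 to 510), and covered 39.6% of the span, ranking 5 of the 795 genes by covered share.

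Igfbp1, the partner of Igfbp3 on chromosome 11 and a gene best known from liver, held 0 peaks over 4.76 kb (chr11:7197787-7202546). The 3.54 kb between the ends of Igfbp1 and Igfbp3 held 0 as well. Of 1445 genes of like span, 5.47% had a peak, so a count of 0 is the usual value for a gene of this size.

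Igfbp4 (gene 16010, plus strand, chr11:99040005-99052655) encodes a binding protein that inhibits IGF action and is cleaved by the protease PAPP-A. It carried 18 peaks over 12.7 kb, or 1.42 per kb, ranking 9 by number among 2189 genes of like span. The first peak began 84 bases after the listed start, and the last ended 165 bases before the annotated end. The fullest of 10 equal bins was the fourth, with 5 peaks, and the longest stretch without one ran for 1604 bases near the 5′ end. The median peak length was 175.0 bases (68 to 547), and 28.5% of the span was covered.

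Igfbp6, whose product prefers IGF2, held 0 peaks over 5.33 kb on chromosome 15, where 5.68% of 1513 genes of like span had any. Igfbp7, which encodes a related protein with low affinity for IGFs, held 0 over 58.8 kb on chromosome 5. In its size class a peak was more usual, with 32.2% of 1653 genes. For these 3 binding protein genes without a peak, the 10 kb on either side held none either, apart from the 13 peaks of Igfbp3 downstream of Igfbp1.

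**Figure D3:**
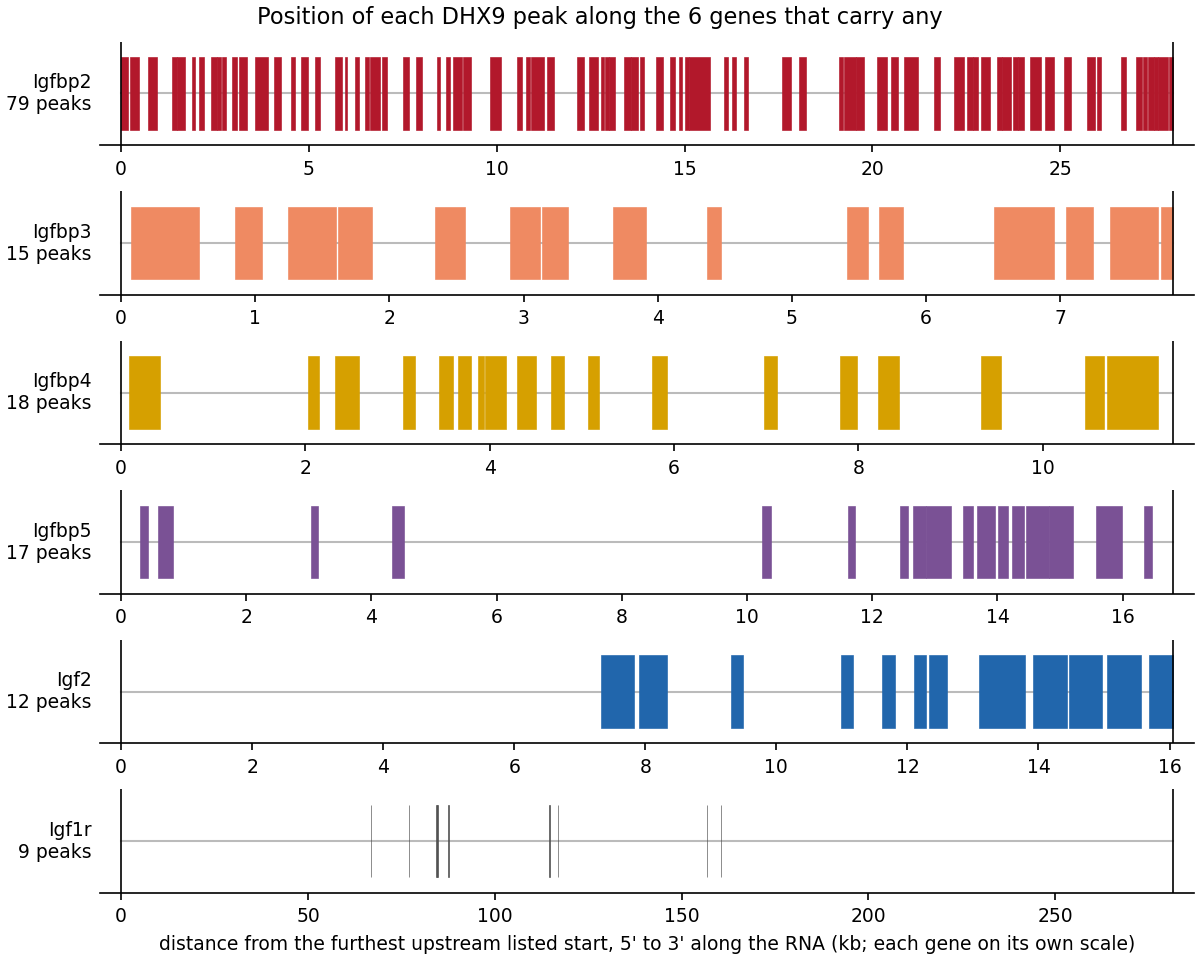
Each DHX9 peak drawn to scale along the 6 genes with any, from the furthest upstream listed start (left black line) to the annotated end of the gene (right black line), in kb, with a scale of its own for each gene. Igfbp2 and Igfbp3 are filled from end to end, the peaks of Igfbp5 and Igf2 lie mostly toward the 3′ end, and the 9 peaks of Igf1r are sparse over a much longer span.

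Igf2 (gene 16002, minus strand, chr7:142650768-142666816) encodes the fetal growth ligand and is expressed from the paternal copy in most tissues. It carried 12 peaks over 16.0 kb, or 0.75 per kb. The peaks were long: their median of 392.5 bases (183 to 702) was the largest of the 795 genes, whose median was 153.5 with a 25th to 75th percentile of 143.0 to 166.0. All 12 were at least as long as the median of the list, compared with 42 of 79 in Igfbp2. They covered 28.6% of the span, almost the same share as in Igfbp4 with 18 peaks.

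The promoter table lists 4 starts of transcription for Igf2, and most peaks lay after the last of them. No peak lay between the first start and the second, 5545 bases further on, and the first peak began 7325 bases after the first start. A single peak lay between the second and the third, another between the third and the fourth, and 10 lay after the fourth. The third and the fourth start each lay inside a peak. The last peak ended 4 bases beyond the annotated end of the gene.

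A pair of Igf2 peaks lies close to the third start and is shown because its bases before that start are in the promoter table. The 70 bases at chr7:142658985-142659054 are 13.8% of the first peak in the direction of the RNA (chr7:142658985-142659491), and the 106 bases at chr7:142658805-142658910 are 25.2% of the second (chr7:142658490-142658910), so most of each peak is not shown. Both are on the minus strand and given 5′ to 3′ with runs of at least 3 G in capitals.
Igf2, 70 bases of the peak between the second and the third start: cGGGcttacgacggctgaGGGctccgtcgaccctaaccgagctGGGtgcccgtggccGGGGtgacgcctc
Igf2, 106 bases before the third start, of the peak across it: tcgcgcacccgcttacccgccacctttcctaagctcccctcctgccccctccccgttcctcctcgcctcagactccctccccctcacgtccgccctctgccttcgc

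These neighbouring stretches differed in composition. The first had 38.6% G and 4 runs of at least 3 G, and the second had 12.3% G and no such run. Of windows at the same offsets before all listed starts, 90.9% had less G than the first stretch and 2.04% less than the second. Both were rich in G plus C (72.9% and 69.8%). Neither held the G-quadruplex pattern on either strand, which 2.94% and 9.93% of windows of those lengths held.

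The microRNA hairpin Mir483 lies within Igf2 on the same strand (chr7:142654924-142654996) and was not covered by any peak. A peak ended 2 bases before the hairpin in the direction of the RNA, and the next peak began 204 bases after it. Its mature products are given 5′ to 3′ from RefSeq (GRCm38.p6) with the seed, bases 2 to 8, in capitals, to show what lies in this gap.
mmu-miR-483-5p: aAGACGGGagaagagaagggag
mmu-miR-483-3p: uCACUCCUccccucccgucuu

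Igf1, the other ligand gene, held 0 peaks over 78.8 kb on chromosome 10 and 0 in the 10 kb on either side. Of 1379 genes of like span, 35.0% had a peak. The 2 ligand genes thus differed in whether any peak was called, with the larger gene at 0. The difference has no replicate error and was not tested.

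Igf1r (gene 16001, plus strand, chr7:67952257-68233668) had a sparse pattern. Its 9 peaks were spread over 281.4 kb, or 0.03 per kb, and covered 0.475% of the span. The first lay 66.7 kb after the start (66737 bases), the last ended 120825 bases before the end of the gene, and the median distance between midpoints was 5621.0 bases. In 10 equal bins along the gene the peaks numbered 0, 0, 2, 3, 2, 2, 0, 0, 0 and 0. The lengths of 73 to 244 bases, with a median of 140.0, were close to those of the whole list. Among 377 genes of like span, 39.5% had a peak, and Igf1r ranked 54 by number.

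**Figure D4:**
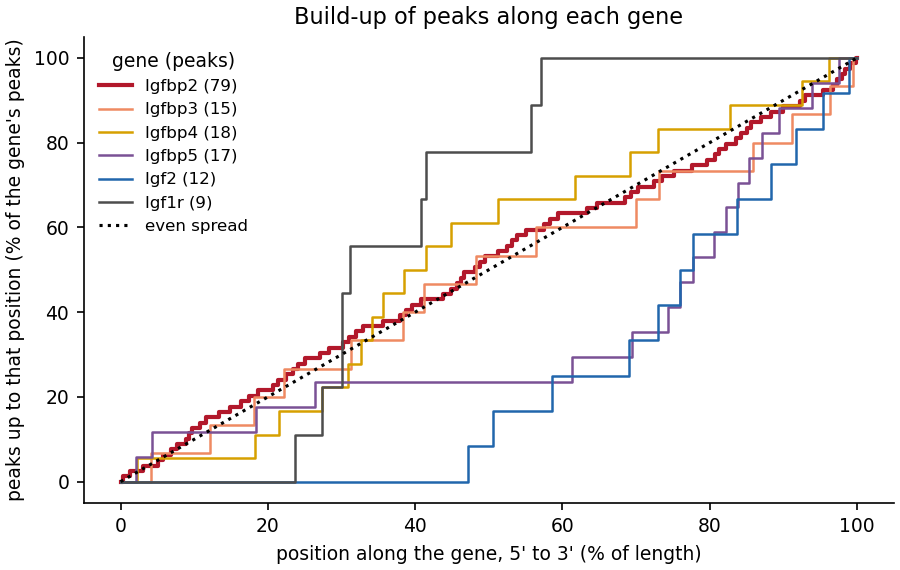
Share of each gene's peaks reached (vertical, %) up to each position along the gene (horizontal, % of length, 5′ to 3′), with the dotted line for an even spread. Igfbp2 and Igfbp3 follow the dotted line, Igfbp5 and Igf2 run below it with 23.5% and 8.33% of their peaks upstream of the midpoint, and Igf1r reaches 100% well before the end of the gene.

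Peaks at the annotated ends were uncommon in the list as a whole. Of the 795 genes with at least 10 peaks, 9 (1.13%) had a last peak that ended within 10 bases of the annotated end, and Igfbp2, Igfbp3 and Igf2 were among these 9. The other 6 were Akr1a1, Calcrl, Nfia, Ptn, Serpine2 and Slc1a3, all named after their values were seen. The first peak began within 500 bases of the furthest listed start in 111 genes (14.0%), among them Igfbp2, Igfbp3, Igfbp4 and Igfbp5. Both held for 4 genes (0.503%): Igfbp2, Igfbp3, Ptn, which encodes a heparin-binding growth factor, and Serpine2, which encodes a secreted protease inhibitor. The match at the end depends on the RefSeq end chosen for each gene. These shares are not matched for how much of a gene its peaks cover. Peaks covered 49.9% of Igfbp2 and 39.6% of Igfbp3, against a median of 6.21% over the 795 genes. A peak near an end is likelier in a densely covered gene, so these matches are description and not a separate result.

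Other genes of the IGF pathway were taken from 6 lists with 56 genes, of which 18 (32.1%) carried a peak, beside the 18.9% of all protein-coding genes. That 18.9% is not matched for span. The share with a peak was 5.47% in genes of like span to Igfbp1 and 39.5% in those of like span to Igf1r. With only peaks in no other gene, 17 of the 56 carried one. Like the members, these lists were drawn up with earlier results known, and they are described by counts alone. The median gene of all protein-coding genes had 0 peaks.

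None of 12 secreted relatives of the binding proteins carried one, a list that includes the CCN genes, Igfbpl1, Kazald1, Esm1, the HTRA protease genes and Igfals, whose product joins Igfbp3 in blood. Of 9 genes for proteases of the binding proteins and their inhibitors, 2 did, namely the matrix metalloproteinase genes Mmp2 and Mmp14 with 3 peaks each. Pappa, Pappa2, Stc1 and Stc2 had 0.

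Among insulin and its receptors, 2 of 5 genes carried a peak, and the insulin receptor gene Insr had 1. Igf2r, whose product removes IGF2 from the cell surface, spans 69 peaks, but 68 of them were on the opposite strand, that of the noncoding RNA Airn, and 1 was on its own strand.

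Of 11 adaptor genes, 7 carried one, led by Gab1, a docking protein gene, with 77 peaks over 116.1 kb (0.66 per kb). Sos2, an activator of RAS, had 6, the insulin receptor substrate gene Irs2 had 5, and Grb10, an imprinted inhibitor of the receptor, had 4. Of 16 genes of the PI3 kinase, AKT and FOXO arm, 5 carried a peak: the PI3 kinase subunit gene Pik3r1 had 22, the kinase gene Gsk3b 13, Pdpk1, whose product activates AKT, 9, and the growth regulator gene Mtor 3. Of the 3 genes for proteins that bind Igf2 mRNA, Igf2bp3 had 23 peaks, Igf2bp1 had 5 and Igf2bp2 had 0. Leaving aside Igf2r, the densest gene of these lists was Gab1, and its 0.66 peaks per kb lay below those of Igfbp2, Igfbp3, Igfbp4, Igfbp5 and Igf2. Density is the value for which Igfbp2 was picked, and the spans compared were not matched. Densities above that of Gab1 also occurred in marker genes outside the pathway, such as Olig1 (1.84 per kb), Slc1a3 (1.59) and Fabp7 (1.13), though most marker genes held 0 peaks.

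**Figure D5:**
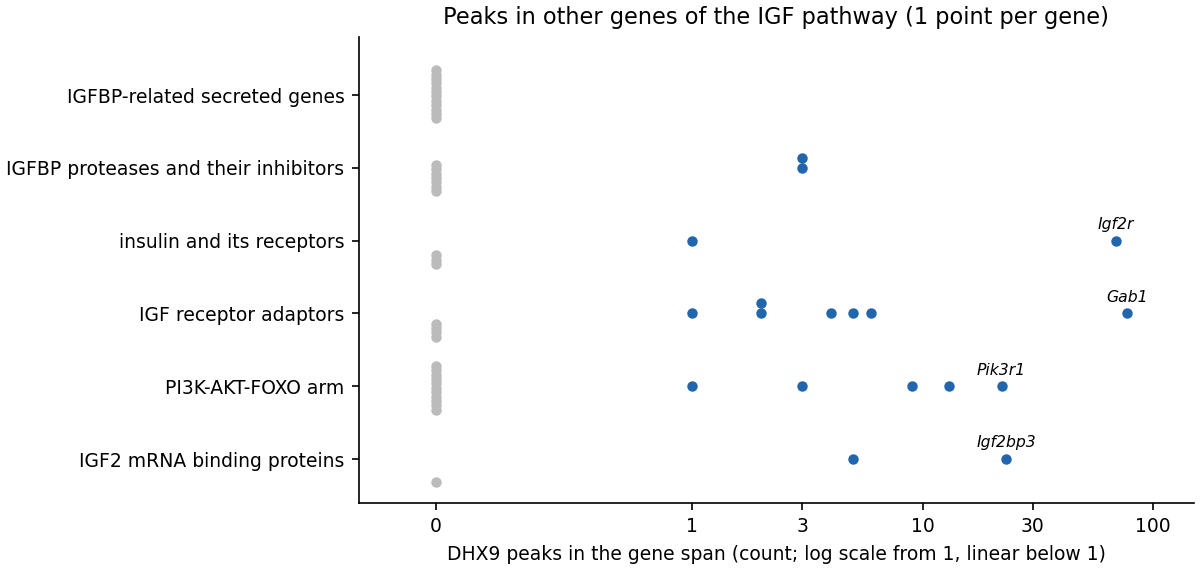
DHX9 peaks per gene (horizontal, log scale from 1, linear below) for 56 other genes of the IGF pathway in 6 lists, 1 point per gene, with grey points at 0. The secreted relatives are all at 0, Gab1 has 77, and 68 of the 69 peaks in the span of Igf2r lie on the opposite strand.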

How the data were processed

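The FLASH libraries, 2 with DHX9 antibody and 2 with rabbit IgG, were grouped by their titles. The authors deposited 1 list of peaks called with PEAKachu, per the file itself, giving chromosome, 1-based start, end and strand. Bowtie2 2.2.6 and the builds hg19 and mm10 are named in the submitters' processing notes. The caller's settings and threshold, the use of replicates and of IgG in peak calling, and the treatment of reads that map to several places are not given in the sources used here. Positions were read as mm10.

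Gene spans came from RefSeq (GRCm38.p6, 49980 genes with a chromosome), and strands and starts of transcription from a RefSeq promoter table, with windows of 250 bases before and 50 after each start. A peak belonged to each gene holding its midpoint. Exons and the genome sequence were not used, so peaks were not assigned to exons, introns or untranslated regions. Distances run from the furthest upstream listed start. Ranks by density used protein-coding genes with at least 10 peaks, and size classes spans within 20%. The genes named were the members, the densest genes next to Igfbp2, and up to 4 of each list. Some genes of these lists are not reported here. Members and lists were chosen with earlier results of these data known. The counting code was tested on simulated data. Python 3.11.15, pandas 2.3.3 and matplotlib 3.10.9 were used.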

Additional observations from a re-analysis of the deposited data

How the results depend on the processing

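Leaving out peaks shorter than the median length kept 92 of the 150 peaks in the 10 genes and 42 of the 79 in Igfbp2, by construction. The median distance between Igfbp2 peaks then rose from 305.5 to 584.0 bases. Igfbp2 ranked 1 by density among genes with at least 10 peaks and 4 among genes with at least 5 peaks. The lower minimum only adds genes with fewer than 10 peaks and leaves the density of Igfbp2 as it was. The rank was 5 with the longer peaks, 2 with peaks less than 50 bases apart merged, and 2 when any overlap of at least 1 base counted. The cause of these other shifts was not tested. The first place of Igfbp2 among genes of like span held for spans within 10, 20 and 50% and with longer peaks only, merged peaks, any overlap, or peaks in no other gene. The 10 kb on both sides of the members held 38 peaks, all in a neighbouring member, with 24 when peaks were merged or only longer ones kept, 4 for 5 kb and 74 for 20 kb. In all settings tried 6 of the 10 genes carried a peak. Of 112 recomputed values, 93 stayed within 1.5 times the value reported. Some of these could not change, because all 150 member peaks already lay on their gene's strand and in no other gene. Counting peaks on the gene's own strand only was added after the data were seen. It changed no peak number of the members and no value of the Igfbp2 layout. The density rank and the ranks among genes of like span were not rerun with it. The ranks over the 795 genes already used only peaks on the gene's own strand. Without values per library no replicate could be left out. No paired analysis was possible because the list has no column for any library. Depth and IgG level at each peak are unknown, so a gene at 0 may lie below what the caller could detect.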
